A study of Mus musculus with 12 samples.

Results

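The genes described here are 10 genes of glucose production and glucose transport in the kidney: Pck1, Pck2, Pcx, Fbp1, G6pc, Slc5a2, Slc5a1, Slc2a2, Slc2a1 and Hk1. They were taken by symbol from the 55487 genes of the expression table. All 10 were found, and all 10 passed the filter on low counts with 17890 genes in total. The set was chosen by the fold changes between the diets in these same libraries. The diet differences of its members are therefore given as a description, and nothing is supported with them.

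Messenger RNA had been sequenced from the kidney of male mice carrying X-linked Alport syndrome (XLAS), an inherited disease of the type IV collagen of the glomerular basement membrane. The sample titles name the collagen gene Col4a5. All mice were on the B6 background and 30 weeks old, all carry 1 genotype label, and they ate either a control diet or a diet holding 500 ppm of fisetin, a plant flavonol. Each diet had 6 libraries, 3 in each of the 2 batches that the labels name, and libraries are called here by diet and a number that pairs nothing. How long the diet was fed is not stated in the sources used here. No kidney without the disease was analysed here, so every difference is between diseased kidneys. The labels do not state whether libraries of 1 diet are separate animals. P-values therefore describe only the spread among these samples, which may be technical. Total counts were 18638748 to 22396857 per control library and 16310214 to 24451821 per fisetin library.

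The kidney is, with the liver, the organ that releases newly made glucose into the blood, and it does so in the proximal tubule. Lactate, glutamine and other precursors reach oxaloacetate, partly through pyruvate carboxylase (Pcx). Phosphoenolpyruvate carboxykinase, cytosolic (Pck1) or mitochondrial (Pck2), turns oxaloacetate into phosphoenolpyruvate, and fructose-1,6-bisphosphatase (Fbp1) and the catalytic subunit of glucose-6-phosphatase (G6pc) complete the path to glucose. In the proximal tubule Pck1 also disposes of the carbon left when glutamine is broken down to ammonia, and its transcript is known to respond to acid load, cAMP and glucocorticoids. The same cells recover filtered glucose through the sodium-coupled carriers SGLT2 (Slc5a2, early segments) and SGLT1 (Slc5a1, late segments) and release it on the blood side through GLUT2 (Slc2a2) and GLUT1 (Slc2a1). Hexokinase 1 (Hk1) phosphorylates glucose for use within the cell and is found mostly in the distal nephron.

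In GRCm38 coordinates the genes of glucose production were Pck1 at chr2:173153048-173159273 (+), Pck2 at chr14:55540266-55551242 (+), Pcx at chr19:4510472-4621752 (+), Fbp1 at chr13:62864753-62888282 (-) and G6pc at chr11:101367561-101377903 (+). The sodium-coupled carriers lay at chr7:128265657-128272430 (+, Slc5a2) and chr5:33104219-33162870 (+, Slc5a1). The facilitative carriers lay at chr3:28697903-28731359 (+, Slc2a2) and chr4:119108711-119137983 (+, Slc2a1), and Hk1 at chr10:62268855-62379908 (-). Annotated genes on the opposite strand overlap 4 of them with counts of their own: BC017158 at Slc5a2 (mean count 616), Lrfn4 at Pcx (185), Gm10876 at Pck2 (72.3) and Hk1os at Hk1 (8.5). Whether counting used the strand is not given in the sources used here, so the values of these 4 genes carry that uncertainty.

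The promoters of Pck1 and G6pc are shown because these genes had the most positive and the most negative diet difference of the 10 with all 12 libraries (without fisetin 6, Slc5a2 was slightly more negative than G6pc). Each runs from 250 bases before to 50 bases after the RefSeq start site (GRCm38.p6), at chr2:173152823-173153122 (+) and chr11:101367466-101367765 (+), and capitals mark matches to 3 short motifs searched on both strands.
Pck1: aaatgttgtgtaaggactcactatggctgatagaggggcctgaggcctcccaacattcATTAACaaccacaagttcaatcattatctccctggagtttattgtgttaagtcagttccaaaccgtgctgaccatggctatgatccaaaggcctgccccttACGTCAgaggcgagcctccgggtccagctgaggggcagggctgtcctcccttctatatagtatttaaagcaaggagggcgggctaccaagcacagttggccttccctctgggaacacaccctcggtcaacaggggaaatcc
G6pc: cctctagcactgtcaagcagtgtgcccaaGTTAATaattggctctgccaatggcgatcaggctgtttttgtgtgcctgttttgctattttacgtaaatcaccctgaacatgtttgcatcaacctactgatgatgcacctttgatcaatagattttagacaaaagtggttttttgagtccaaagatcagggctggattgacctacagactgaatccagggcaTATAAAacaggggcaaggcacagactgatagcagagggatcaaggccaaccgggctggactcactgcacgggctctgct
In the Pck1 promoter the capitals are ATTAAC, the reverse complement of GTTAAT (the core of the HNF1 motif), 192 bases before the start, and ACGTCA (the core of a cAMP response element), 91 bases before it. In the G6pc promoter they are GTTAAT, 221 bases before the start, and the TATA box motif TATAAA, 29 bases before it. Of 32851 promoters of the same length, 7.10% held GTTAAT, 7.51% ACGTCA and 13.6% TATAAA. The ACGTCA core was found in no other promoter of the 9 genes that had an entry, GTTAAT in none but these 2, and TATAAA otherwise only in Slc2a1, 28 bases after its start. A match here describes the letters of the window and says nothing on binding.

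A pair of fisetin libraries stood apart, and both were batch 2 libraries. Fisetin 5 held transcripts of liver: Alb, serum albumin, was at 737 CPM (counts scaled to a common library size with the TMM factors of edgeR) there and at 1.58 to 5.48 CPM in the other 11 libraries. Liver also makes Pck1, G6pc, Fbp1, Pcx and Slc2a2. Fisetin 6 had the highest score of markers of proximal tubule segments 1 and 2 (mean log2 CPM of 18 genes, none of them among the 10), at 9.97, whereas fisetin 5 had the lowest at 8.68. The other fisetin libraries had scores of 8.89 to 9.48 and the control libraries 9.21 to 9.92. Fisetin 6 also had the lowest score of 12 leukocyte markers, 3.63, and fisetin 5 the highest, 5.35, against 3.74 to 4.94 in the controls. The share of TPM taken by 7SL RNA, a small abundant non-coding RNA, was 49.2% in fisetin 6 and 40.3% to 44.5% in the other fisetin libraries. It was 53.1% in control 1 and 41.4% to 43.8% in the other controls. The score of 6 red blood cell markers was highest in fisetin 6 (3.88) and lowest in fisetin 5 (1.30), against 1.70 to 3.18 in the controls. Control 1 also had the lowest proximal tubule score and the highest leukocyte score of the controls. Without control 1 the diet difference of Pck1 was 0.74 ± 0.23 on the log2 scale, and that of G6pc -0.44 ± 0.22. The kidney label held in all 12 libraries, with Lrp2 (megalin, of the proximal tubule) at 2044 to 5673 CPM and Umod (uromodulin, of the thick ascending limb) at 1471 to 3250 CPM. The results below are given with and without these 2 libraries where they rest on them.

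Pck1 had the largest difference between the diets, with all 12 libraries and without fisetin 6. With the control diet it was at 1233, 1383, 1176, 1100, 1281 and 1698 CPM in libraries 1 to 6, and with fisetin at 2779, 2341, 2655, 2145, 2674 and 1002 CPM. Fisetin 1 to 5 were all above the highest control library, and fisetin 6 was below the lowest. The means were 1312 ± 212 CPM with the control diet and 2266 ± 663 CPM with fisetin (SD, n = 6 each), or 2519 ± 265 CPM without fisetin 6 (n = 5). On the log2 scale the difference, fisetin minus control, was 0.77 ± 0.21 (SE; 95% interval 0.31 to 1.23) with all 12 libraries and 0.94 ± 0.12 (0.68 to 1.21) without fisetin 6. It was 0.68 ± 0.22 without fisetin 5 and 0.92 ± 0.13 without fisetin 5 and 6. Pck1 took 0.103% to 0.161% of all counts in the control libraries, where it ranked 40th to 62nd of all genes by CPM. In fisetin 1 to 5 it ranked 12th to 28th with 0.219% to 0.290% of the counts, and in fisetin 6 it ranked 65th with 0.0935%.

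**Figure D1:**
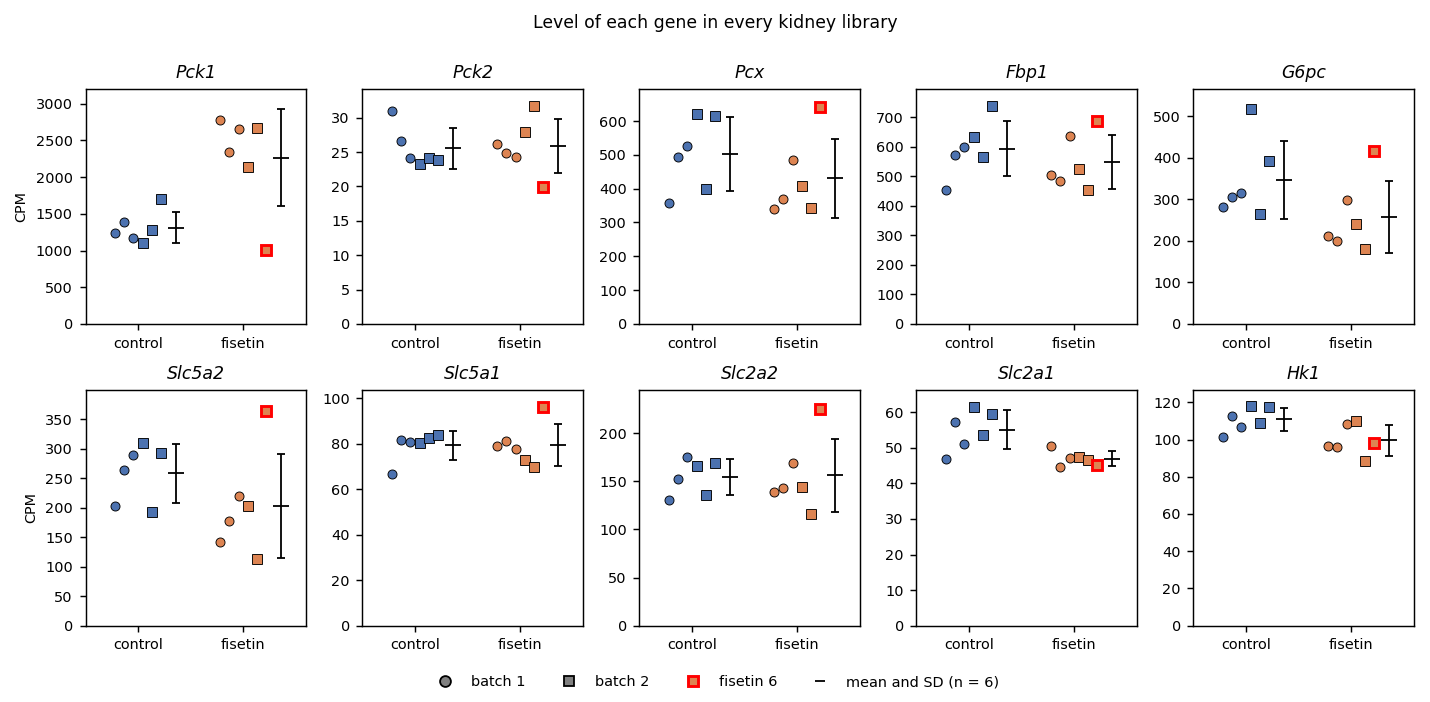
Level of each of the 10 genes in CPM (y axis, from 0) in every library, control in blue and fisetin in orange, circles for batch 1 and squares for batch 2, with mean and SD (n = 6) beside each group. Pck1 lies at 2145 to 2779 CPM in fisetin 1 to 5 and at 1002 CPM in fisetin 6 (red outline), against 1100 to 1698 CPM in the control libraries, and in the other 9 panels the groups overlap.

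The mitochondrial enzyme Pck2 did not share the higher levels of Pck1 with fisetin, though fisetin 6 was again below every control library, at 19.9 CPM. The level of Pck2 was 23.3 to 31.0 CPM with the control diet (median 24.2) and 19.9 to 31.7 CPM with fisetin (median 25.5), and the groups overlapped. The difference was 0.02 ± 0.10 on the log2 scale (95% interval -0.21 to 0.25) with all libraries and 0.08 ± 0.09 without fisetin 6. In FPKM, which is scaled for transcript length, Pck1 was 51.3 ± 9.04 times Pck2 with the control diet and 83.0 ± 20.4 times with fisetin (SD, n = 6 each).

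Pcx, which feeds oxaloacetate from pyruvate, ran from 357 to 619 CPM with the control diet (median 510) and from 340 to 640 CPM with fisetin (median 388). Its highest value of all was in fisetin 6. The difference was -0.22 ± 0.17 on the log2 scale with all libraries and -0.35 ± 0.16 without fisetin 6. Fbp1, which removes a phosphate from fructose-1,6-bisphosphate, was at 454 to 739 CPM (median 586) and 455 to 689 CPM (median 515), with a difference of -0.11 ± 0.12, or -0.18 ± 0.12 without fisetin 6. Both 95% intervals with all libraries included 0.

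G6pc, whose enzyme releases free glucose, had the most negative difference of the 10 with all 12 libraries, and Slc5a2 had it without fisetin 6. It was at 282, 307, 315, 518, 265 and 394 CPM in control 1 to 6 and at 213, 201, 298, 241, 180 and 416 CPM in fisetin 1 to 6. Fisetin 1, 2, 4 and 5 were below every control library, fisetin 3 lay among the controls, and fisetin 6 was above all controls but 1. The difference was -0.42 ± 0.21 on the log2 scale (95% interval -0.87 to 0.03) with all libraries, -0.59 ± 0.19 without fisetin 6, -0.31 ± 0.18 without fisetin 5 and -0.46 ± 0.19 without fisetin 5 and 6. The lowest level of all 12 was in fisetin 5, the library with liver transcripts, and the part of liver RNA in these values was not tested.

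In fisetin 1, 2, 4 and 5, Pck1 was above every control library and G6pc below every control library. The differences of Pcx (-0.22) and Fbp1 (-0.11) with all libraries had the sign of G6pc, so Pck1 stood apart from the other 3. The ratio of Pck1 to G6pc in FPKM was 1.94 to 4.44 in the 6 control libraries and 8.12 to 13.5 in fisetin 1 to 5, and fisetin 6 was at 2.18. The ratio of Pck1 to Fbp1 was 0.876 to 1.36 with the control diet, 2.06 to 2.96 in fisetin 1 to 5 and 0.728 in fisetin 6. For Pck1 to Pcx it was 2.66 to 4.93, 7.50 to 11.6 and 2.30 in the same order. These ratios were built from members already known to differ and are given without a test.

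Among the sodium-coupled carriers, Slc5a2 (SGLT2) was at 203, 264, 290, 311, 192 and 292 CPM in control 1 to 6 and at 141, 178, 220, 203, 113 and 364 CPM in fisetin 1 to 6. The groups overlapped, with fisetin 1, 2 and 5 below all controls and fisetin 6 above all. The difference was -0.36 ± 0.25 on the log2 scale (95% interval -0.89 to 0.18) with all libraries and -0.60 ± 0.19 without fisetin 6, -0.22 ± 0.20 without fisetin 5 and -0.45 ± 0.17 without fisetin 5 and 6. Slc5a1 (SGLT1) stayed within 66.6 to 83.9 CPM with the control diet (median 81.3) and 69.9 to 96.3 CPM with fisetin (median 78.5). Its difference was 0.00 ± 0.08, with a 95% interval of -0.17 to 0.17, and -0.06 ± 0.07 without fisetin 6.

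Of the facilitative carriers, Slc2a2 (GLUT2) was at 131 to 175 CPM with the control diet (median 159) and 116 to 225 CPM with fisetin (median 144). Its difference was 0.01 ± 0.14 with all libraries and -0.13 ± 0.10 without fisetin 6, which had the highest level of all 12. Slc2a1 (GLUT1) was at 47.0 to 61.6 CPM (median 55.4) in control libraries and within a narrow 44.7 to 50.6 CPM (median 46.8) with fisetin. Only control 1, at 47.0 CPM, lay within the range of the fisetin libraries. The difference of Slc2a1 was -0.23 ± 0.06 with all libraries and -0.21 ± 0.07 without fisetin 6. Hk1, the hexokinase that traps glucose in the cell, was at 102 to 118 CPM (median 111) and 88.6 to 110 CPM (median 97.3), with differences of -0.15 ± 0.06 and -0.14 ± 0.06. Slc2a1 and Hk1 were the members whose difference moved least when fisetin 6 was left out. Hk1 moved more with fisetin 5, which had its lowest level. Its difference was -0.11 ± 0.05 without fisetin 5. Without fisetin 5 and 6 it was -0.08 ± 0.05 (95% interval -0.20 to 0.04). Slc2a1 was at -0.22 ± 0.07 and -0.18 ± 0.07 in the same order. Fisetin 6 was not at the top of the fisetin libraries for either gene.

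The ratio of Slc5a2 to Slc2a2 in FPKM, apical uptake carrier over basolateral release carrier of the same cells, was 2.12 to 2.58 in the control libraries and 1.33 to 2.11 with fisetin. The groups did not overlap in this ratio, and fisetin 6, at 2.11, was next to the lowest control. The lowest value, 1.33, was in fisetin 5, the library with liver transcripts, and the other fisetin libraries were at 1.66 to 2.11. The part of liver RNA in this ratio was not tested. How often other pairs of genes lie apart was not counted, so nothing is read from the gap. The ratio was chosen after its values were seen and has no test.

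**Figure D2:**
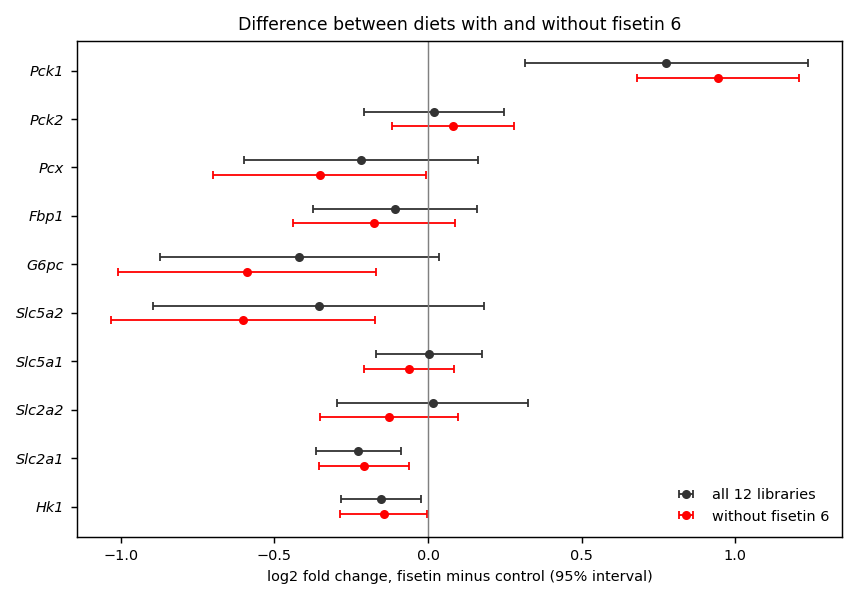
Log2 fold change of each gene, fisetin minus control (x axis), with its 95% interval, from all 12 libraries (dark) and without fisetin 6 (red). Pck1 is at 0.77 and 0.94 and the interval is above 0 in both, G6pc at -0.42 and -0.59, and Slc5a2 at -0.36 and -0.60.

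With all 12 libraries and edgeR, 0 of the 10 genes were called at an adjusted p of 0.05, as were 0% of the 17890 genes tested. At an unadjusted p under 0.05 there were 3 of the 10 (Pck1, Slc2a1 and Hk1), against 14.6% of all genes. Without fisetin 6, Pck1 was called higher and no other member was called, where 0.388% of all genes were called and 0.244% called higher. Without fisetin 5 and 6 the same single member was called, against 0.0881% of all genes and 0.0496% higher. DESeq2 with all libraries called Pck1 higher (0.861% of all genes called, 0.503% higher). Without fisetin 6 it called Pck1 higher and G6pc, Slc5a2 and Slc2a1 lower (9.63% of all genes, 5.14% higher and 4.48% lower). Without fisetin 5 neither tool called a member, with 0% of all genes called by edgeR and 0.35% by DESeq2. The limma-voom fit that gives each library a quality weight called Pck1 higher and G6pc, Slc2a1 and Hk1 lower, where it called 13.4% of all genes, 6.46% higher and 6.9% lower. Since the members were chosen on this contrast, nothing is read from these counts. With all libraries the ranges of the groups overlapped for each of the 10, while they were apart for 0.894% of all genes. Without fisetin 6 they were apart for Pck1 alone, where 3.49% of all genes were apart and 1.79% were apart with fisetin higher. The median difference was -0.13 over the 10 genes and 0.00080 over all genes tested.

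Within batches, Pck1 differed by 1.04 ± 0.12 on the log2 scale in batch 1 and by 0.53 ± 0.37 in batch 2, which holds fisetin 6. G6pc differed by -0.35 ± 0.15 and -0.49 ± 0.35, Slc5a2 by -0.49 ± 0.19 and -0.22 ± 0.40, and Slc2a1 by -0.13 ± 0.09 and -0.32 ± 0.08. Fbp1 was at 0.00 ± 0.14 in batch 1 and -0.21 ± 0.18 in batch 2. The diet difference did not pass the test of a difference between batches for any of the 10 genes (edgeR interaction, adjusted p = 0.99994 for each, 0% of all genes called). The interaction term of Pck1 was -0.52 ± 0.41, and -0.21 ± 0.24 without fisetin 6. Without fisetin 6 no member passed that test either (edgeR adjusted p = 0.83 or more). At an unadjusted p under 0.05 it then gave 2 members, against 790 of all genes. They were Pck2 (0.44 ± 0.14) and Slc5a1 (-0.26 ± 0.11). The batches themselves differed for 0 of the 10 genes (edgeR, adjusted p between 0.892 and 0.927, 0% of all genes called), with the largest batch term at 0.31 ± 0.21 for G6pc. With all 12 libraries, at an unadjusted p under 0.05, there were 376 genes for the interaction and 604 for the batch term over all genes. DESeq2 called 1 and 0.

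Levels can be compared between genes only per length, and in FPKM the control means spanned a wide range. Pck1 (556 ± 84.8, SD, n = 6) and Fbp1 (500) led, followed by G6pc (160), Slc5a2 (156) and Pcx (146). Slc2a2 (66.3), Hk1 (31.2), Slc5a1 (20.5), Slc2a1 (18.7) and Pck2 (10.97) came after them. The ranges of control libraries overlapped for Pck1 and Fbp1 (Pck1 higher in 4 of 6 libraries), for G6pc and Slc5a2 (4 of 6), for Slc5a2 and Pcx (5 of 6) and for Slc5a1 and Slc2a1 (5 of 6). All other neighbours in this order were apart. With fisetin, Pck1 averaged 1003 FPKM and Fbp1 477 FPKM, and Pck1 was the higher of these in 5 of 6 libraries, fisetin 6 being the exception. SGLT2 was 7.61 ± 1.08 times SGLT1 in FPKM with the control diet and 5.92 ± 1.62 times with fisetin (SD, n = 6 each).

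The members were next compared with the score of proximal tubule markers, after removing the mean of each diet and batch, so that the comparison uses only the spread within groups. This comparison was added after the data had been seen. Pearson's r over the 12 libraries was 0.99 for Slc5a2 (Spearman's rho 0.99), 0.97 for Slc2a2 (0.94), 0.97 for Pcx (0.98), 0.94 for G6pc (0.94) and 0.90 for Fbp1 (0.94). For Pck2 it was -0.88 (-0.88). These 6 passed over the 10 relations (exact permutation p of r between 0.00077 and 0.0062, adjusted p between 0.0026 and 0.010, and adjusted p of rho between 0.0026 and 0.0077). The smallest p that the arrangements within groups can give is 0.00077. Without fisetin 5 and 6, the libraries farthest from the median score, r was 0.99 for Slc5a2, 0.95 for Slc2a2, 0.98 for Pcx, 0.86 for G6pc, 0.84 for Fbp1 and -0.68 for Pck2.

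The other 4 members did not pass. Pck1 had r = -0.69 (rho -0.45; exact permutation p = 0.18 and 0.30, adjusted 0.21 and 0.33), and r = -0.06 without fisetin 5 and 6, so its relation rested on those libraries. Slc5a1 had r = 0.73 (rho 0.48; exact permutation p = 0.070 and 0.21, adjusted 0.10 and 0.26), falling to 0.34 without them. Hk1 had r = 0.58 (rho 0.69; exact permutation p = 0.19 and 0.064, adjusted 0.21 and 0.091), and 0.62 without them. Slc2a1 had r = 0.18 (rho 0.20; exact permutation p = 0.52 and 0.54, adjusted 0.52 and 0.54), and its r turned to -0.44 when libraries were scaled by total counts. With that scaling r was 0.42 for Slc5a1 and 0.0018 for Hk1. In a bulk sample, fewer proximal tubule cells and less RNA per cell cannot be told apart.

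**Figure D3:**
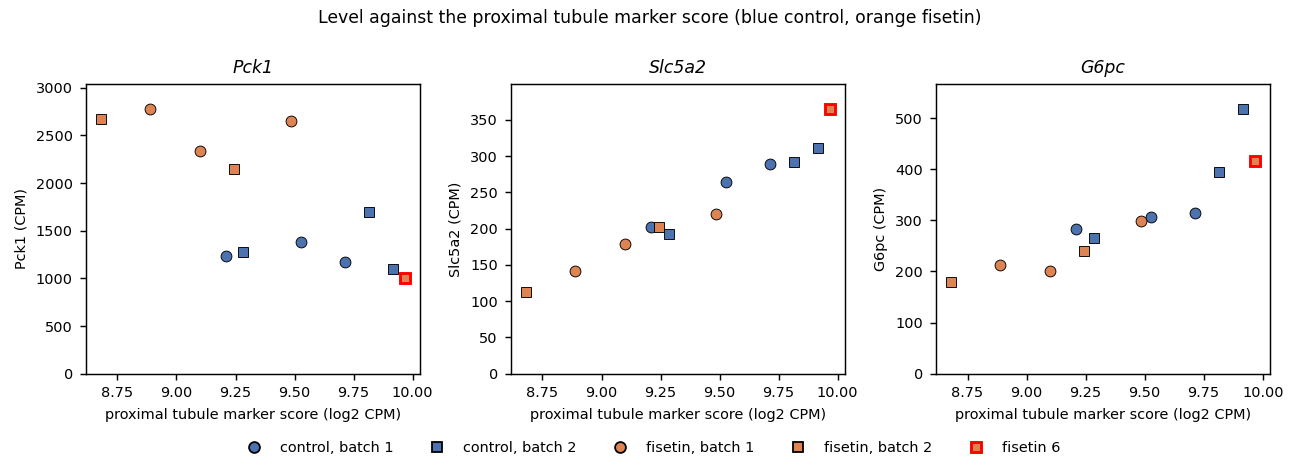
Level of Pck1, Slc5a2 and G6pc in CPM (y axes, from 0) against the proximal tubule marker score in mean log2 CPM (x axis), 1 point per library, control in blue and fisetin in orange. Slc5a2 and G6pc follow the score from 8.68 in fisetin 5 to 9.97 in fisetin 6, while the 5 high values of Pck1 all lie at scores of 8.68 to 9.48.

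The score itself was 9.58 ± 0.29 with the control diet and 9.23 ± 0.46 with fisetin (SD, n = 6 each; exact permutation p = 0.15, two-sided, over 400 arrangements within batches), with 17 of the 18 markers negative. The marker genes were chosen with earlier results of these data known. The p-values of the marker scores are therefore a description. The markers of proximal tubule segment 3 differed by -0.47 (exact permutation p = 0.085, 11 of 12 negative) and those of the thick ascending limb by -0.26 (exact permutation p = 0.17, 10 of 10 negative), so lower values were not found for segments 1 and 2 alone. When the score of segments 1 and 2 was added to the fit as a term, the differences were 0.52 ± 0.24 for Pck1, -0.12 ± 0.09 for G6pc, 0.00 ± 0.05 for Slc5a2, 0.06 ± 0.06 for Pcx, 0.07 ± 0.07 for Fbp1 and 0.23 ± 0.04 for Slc2a2. Slc2a1 remained at -0.21 ± 0.07 and Hk1 was at -0.10 ± 0.05. In that fit 0 of the 10 members and 0.095% of all genes were called. Compared with the fit without the score, the value of Slc5a2 was close to 0, those of G6pc and Pck1 were smaller, and those of Pcx and Fbp1 had the other sign. The 95% interval of Pck1 then included 0 (-0.03 to 1.07). The value of Slc2a2 was larger with the score, with a 95% interval of 0.14 to 0.33.

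Markers of other cells that make some of these transcripts were set beside them. These markers too were chosen with earlier results known, and the p-values of their scores are a description. The leukocyte score was 4.05 ± 0.46 with the control diet and 4.68 ± 0.61 with fisetin (SD, n = 6 each; exact permutation p = 0.075), and all 12 of its genes were positive. Adipocytes express Pck1 and Pcx, and Adipoq, the adiponectin gene, ran from 1.31 to 28.4 CPM in the control libraries and from 0.64 to 23.1 CPM with fisetin. The adipocyte scores were 1.81 to 5.47 and 1.45 to 5.72 (difference 0.01, exact permutation p = 0.99, 10 of 12 genes counted). In the edgeR fit all 10 of these genes had a positive difference, with a median of 0.54. In fisetin 1 to 6 Adipoq was at 14.1, 15.8, 0.73, 0.64, 23.1 and 2.62 CPM. Of 12 hepatocyte markers 8 were counted, and the score of those was 5.39 to 5.78 with the control diet and 5.23 to 5.66 in all fisetin libraries but fisetin 5, which was at 7.31 (difference 0.08, exact permutation p = 0.98). Outside fisetin 5 the liver genes Apoa1, Cps1 and Tat were at or near 0. The Pck1 difference was 0.68 without fisetin 5. The part of leukocytes and adipocytes in these differences was not tested.

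Within the groups, the relation of Pck1 to each of the other 9 genes did not pass. Pearson's r ran from -0.73 (Slc2a2) to 0.82 (Pck2) and Spearman's rho from -0.51 to 0.65, with exact permutation p of 0.052 or more and adjusted p of 0.30 or more for r and 0.43 or more for rho over the 9 relations. Without fisetin 5 and 6 the r values lay between -0.16 and 0.45, so the larger ones rested on these libraries. The r of Pck1 with Hk1, -0.04, was 0.38 with scaling by total counts.

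The genes whose level was most like that of Pck1 over the 12 libraries, after removing batch means, were Psrc1 (r = 0.96), Pdgfd (0.95), Esyt2 (0.95), Slc38a3 (0.95) and Slc6a20a (0.94), of 14971 genes compared. These r values include the diet difference and are a description. Psrc1, a gene of the mitotic spindle, was at 1.55 CPM on average with the control diet, 3.11 CPM in fisetin 1 to 5 and 1.20 CPM in fisetin 6. Pdgfd, a growth factor gene, was at 21.9, 26.6 and 19.7 CPM in the same order. Slc38a3 encodes SNAT3, which brings glutamine into proximal tubule cells from the blood side, and Slc6a20a an apical carrier of imino acids. Slc6a20a was at 22.6, 27.2 and 19.1 CPM.

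The other genes of these pathways were described from 8 lists with 142 genes, of which 137 were tested. With all libraries and edgeR 0 of them were called, as were 0% of all genes. Of the 137, 16 had an unadjusted p under 0.05, against 14.6% of all genes. Their differences were positive for 46 and negative for 91, with a median of -0.08. Over all genes 8984 were positive and 8906 negative. Without fisetin 6, 1 was called, Slc38a3 (adjusted p = 0.018 by edgeR), against 0.388% of all genes. By DESeq2 1 was called with all libraries, Creb1, against 0.861% of all genes. DESeq2 without fisetin 6 called 9 higher and 14 lower, against 5.14% and 4.48% of all genes.

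Of the 21 other enzymes and carriers of gluconeogenesis, 18 had a negative and 3 a positive difference, with a median of -0.11, and none were called by edgeR with or without fisetin 6. Those with the smallest p were Tpi1, triosephosphate isomerase (-0.22 ± 0.10), and Mdh2, mitochondrial malate dehydrogenase (-0.15 ± 0.08). Slc37a4, which carries glucose-6-phosphate to the G6pc enzyme, was at -0.16 ± 0.16. The median of this list without fisetin 6 was -0.16. The 3 positive members were Eno1, enolase (0.10 ± 0.07), Fbp2 (0.01 ± 0.09) and Gpd1 (0.00 ± 0.17), against 0.77 for Pck1.

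The list of glutamine uptake, ammonia production and proximal acid-base transport had 19 tested genes, 5 positive and 14 negative, with a median of -0.11. The 5 positive genes included Slc38a3, Glud1, Gpt2 (0.05 ± 0.05) and the carbonic anhydrase gene Car2 (0.08 ± 0.07). Slc38a3 was at 76.4 to 110 CPM in the control libraries and at 274, 208, 188, 165, 311 and 66.0 CPM in fisetin 1 to 6, so that, as for Pck1, 5 fisetin libraries were above all controls and fisetin 6 was below all. Its difference was 1.09 ± 0.29 with all libraries and 1.28 ± 0.17 without fisetin 6, and 1.11 ± 0.16 without fisetin 5 and 6 (edgeR adjusted p = 0.27, 0.018 and 0.048). Glud1, glutamate dehydrogenase, was at 477 ± 68.8 and 609 ± 71.3 CPM (0.35 ± 0.10, and 0.40 ± 0.10 without fisetin 6; edgeR adjusted p = 0.28 and 0.076). Glud1 was named after its values were seen. Without fisetin 6 DESeq2 called 3 genes of this list higher and 3 lower, against 5.14% and 4.48% of all genes. Slc38a3 and Glud1 were among the higher ones, with adjusted p of 8.1e-11 and 0.0038. Without fisetin 5 and 6 the DESeq2 adjusted p was 3.9e-09 and 0.050, so the call of Glud1 was lost. Without fisetin 5 alone it was 0.25 for Slc38a3 and 0.20 for Glud1. With the proximal tubule score as a term the difference of Slc38a3 was 0.52, and that of Glud1 was 0.29. The acid-base carriers of the list did not share this direction: Slc4a4, the basolateral bicarbonate carrier, was at 0.00 ± 0.09, Slc9a3, the apical sodium-proton exchanger, at -0.23 ± 0.20, and the ammonia channel gene Rhcg at -0.33 ± 0.22. Ogdhl, related to 2-oxoglutarate dehydrogenase, was low at 8.86 and 7.15 CPM (-0.31 ± 0.08).

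**Figure D4:**
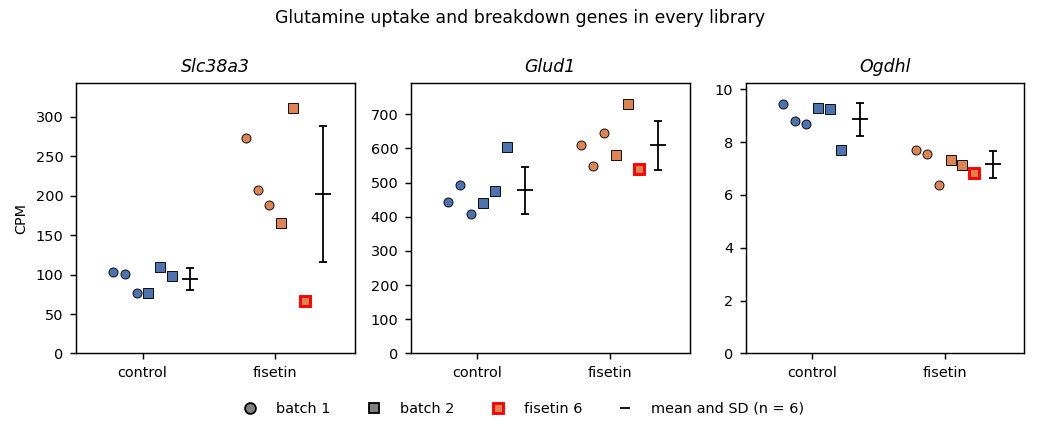
Level in CPM (y axes, from 0) of Slc38a3, Glud1 and Ogdhl in every library, control in blue and fisetin in orange, circles for batch 1 and squares for batch 2, with mean and SD (n = 6). Slc38a3 is at 165 to 311 CPM in fisetin 1 to 5 and at 66.0 CPM in fisetin 6, and Glud1 at 539 to 730 CPM with fisetin against 409 to 604 CPM with the control diet.

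Among 25 regulators of gluconeogenesis, 11 differences were positive and 14 negative (median -0.01), and 0 were called by edgeR. Creb1, the transcription factor that binds the cAMP response element, was at 60.1 to 67.7 CPM in the control libraries and 66.7 to 76.5 CPM with fisetin (0.19 ± 0.05; edgeR adjusted p = 0.25, DESeq2 adjusted p = 0.043). The DESeq2 call of Creb1 was lost without fisetin 5 (adjusted p = 0.18) and without fisetin 5 and 6 (0.14). Fisetin 2 was the single fisetin library within the control range. Atf3, a stress-response factor, was at 0.38 ± 0.15. Hnf4a (-0.18 ± 0.15), the coactivator gene Ppargc1a (-0.13 ± 0.15), Foxo1 (0.03 ± 0.05), Crtc2 (-0.01 ± 0.04) and the glucocorticoid receptor gene Nr3c1 (0.00 ± 0.06) had 95% intervals that included 0. Of 11 tested glucocorticoid-induced genes 3 were positive and 8 negative (median -0.08), none were called, and Zbtb16 (0.18 ± 0.11), Dusp1 (-0.21 ± 0.10), Fkbp5 (-0.13 ± 0.11) and Sgk1 (-0.08 ± 0.08) are examples.

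In glycolysis 9 of 18 tested genes were positive and 9 negative (median -0.01), and 0 were called by edgeR. Pklr, the pyruvate kinase that proximal tubule and liver share, was at 53.8 ± 7.76 and 72.1 ± 14.3 CPM (0.42 ± 0.13), and Hk3, the hexokinase of leukocytes, at 4.74 ± 1.74 and 7.60 ± 2.10 CPM (0.69 ± 0.24), beside the leukocyte score given above. Of the 13 other sugar carriers tested, 5 were positive and 8 negative (median -0.08), with Slc5a10, a sodium-coupled mannose and fructose carrier, at 0.19 ± 0.06 and Slc2a8 at -0.13 ± 0.06. Of the 18 genes of lactate and pyruvate supply, 6 were positive and 12 negative (median -0.09), with Pdk1, pyruvate dehydrogenase kinase, at 0.26 ± 0.09 and the lactate carrier chaperone Bsg at -0.22 ± 0.09. Fructose and polyol metabolism had 4 positive and 8 negative of 12 (median -0.06), with Akr1b3, aldose reductase, at -0.34 ± 0.09 and the glycogen branching enzyme Gbe1 at 0.17 ± 0.10. None of these lists had a member called by edgeR with or without fisetin 6.

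**Figure D5:**
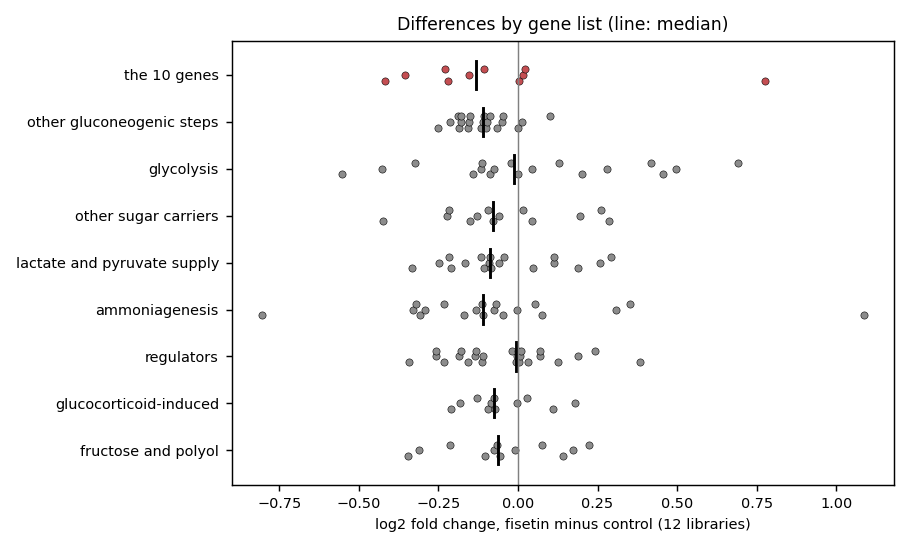
Log2 fold change, fisetin minus control (x axis), of every tested gene in the set of 10 (red) and in the 8 pathway lists (grey), 1 point per gene with a black line at the median. Pck1 at 0.77 and Slc38a3 at 1.09 lie farthest to the right, and the list medians are between -0.13 and -0.01.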

How the data were processed

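Kidney libraries of mice with X-linked Alport syndrome (6 control diet, 6 fisetin) were grouped by diet from the titles and by batch from the labels. The genotype field reads HET although the mice are described as male, so no allele status is used. RNA was extracted with a NucleoMag kit and sequencing libraries were prepared using KAPA mRNA HyperPrep, per the labels' protocols. As tools fastp, STAR, featureCounts and DESeq2 are named, and as builds GRCm38 and mm10, in the submitters' processing notes. For versions, annotation release and counting options, the sources used here give nothing.

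Each library has a column of estimated counts, of TPM and of FPKM in the deposited table, per the file headers. The estimated counts deposited by the authors carry no depth scaling. Since 13.9% of those above 0 differed from a whole number by more than 1e-06, all were rounded. Among the 10 genes this touched Pck2 only, in 8 libraries. The TPM and FPKM values were scaled by the authors for length and depth. FPKM was used for levels between genes, and TPM for 1 alternative as log2(TPM + 1). Of 55487 identifiers, 55141 matched GENCODE M21 (55450 genes), which gave coordinates. Symbols were read from the deposited table. Promoters came from RefSeq.

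Tests used edgeR 4.0.16 in R 4.3.3. The 17890 genes that passed filterByExpr (minimum count 10) were scaled by TMM and fitted with glmQLFit (robust) with batch and diet. They were tested two-sided with glmQLFTest, with Benjamini-Hochberg adjustment over all genes at 0.05. DESeq2 1.42.0 and limma 3.58.1 were alternatives, as were other scalings, no filter, no batch term, single batches, a proximal tubule score term and leaving out libraries. Log2 CPM used a prior count of 2. Scores were permuted within batches (400 arrangements) and relations within diet and batch, in all arrangements. The steps were tested on simulated data. Total counts were 16310214 to 24451821 per library. No pair of libraries was identical, and the 30 pairs of 1 diet differed by 6.99 to 103 times counting noise.

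The 10 genes, the lists and the marker genes were chosen with earlier results of these data known. Named genes beyond the 10 are list members past the threshold, or the 2 with the smallest p in each list, and the 5 most like Pck1. Eno1, Fbp2, Gpd1, Gpt2, Car2, Slc37a4, Glud1, Slc4a4, Slc9a3, Rhcg, Hnf4a, Ppargc1a, Foxo1, Crtc2, Nr3c1, Fkbp5, Sgk1, Alb, Adipoq, Apoa1, Cps1, Tat, Lrp2 and Umod were named after their values were seen. Some results are withheld and not reported here.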

Additional observations from a re-analysis of the deposited data

Results flagged for a closer look

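In each of the 10 genes the 6 libraries of a diet were searched for a highest or lowest library that lies far from the rest, by Dixon's 95% criterion, which makes 20 groups. Chance alone picks about 1 group in 20, and 2 were found. Fisetin 6 had been set apart before this search, so its flag is no independent find. The count is therefore not weighed against that rate.

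Pck1 in fisetin 6 was at 1002.3 CPM, and the gap to the next fisetin library was 0.643 of the range of the group. Slc5a1 in control 1 was at 66.6 CPM, and the gap to the next control library was 0.796 of the range.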

How the results depend on the processing

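Genes called by diet numbered 0 with all libraries and edgeR, 154 by DESeq2, 2390 by limma-voom with quality weights, 1 in batch 1 alone, 17 with the proximal tubule score as a term and 16 without fisetin 5 and 6 (the last chosen after seeing the data). Leaving out 1 library gave 0 to 70 calls, 70 without fisetin 6 and 1 without fisetin 4. Without fisetin 6, the 70 calls became 1737 by DESeq2 and 110 with no filter on low counts. The interaction of diet and batch gave 0 calls by edgeR and 1 by DESeq2. The cause of these shifts was not tested.

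Over 24 alternatives the diet difference of Pck1 stayed between 0.52 and 1.04, that of G6pc between -0.59 and -0.12, that of Slc2a1 between -0.32 and -0.13, and that of Hk1 between -0.21 and -0.0386, the last with log2(TPM + 1). Pcx, Fbp1 and Slc5a2 were negative in 23, 22 and 23 of 24. Pck2, Slc5a1 and Slc2a2 were positive in 18, 18 and 17 of 24. Leaving out 1 library moved Pck1 over 0.68 to 0.94, G6pc over -0.59 to -0.30 and Slc5a2 over -0.60 to -0.22. The relation to the proximal tubule score of Slc2a1 was -0.44, and that of Pck1 with Hk1 0.38, with scaling by total counts, which moved the median of all genes to 0.05. With that scaling the r of Hk1 and Slc5a1 with the score was 0.0018 and 0.42. No paired analysis was possible because the labels give no replicate numbers that the diets share.

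Depth did not limit the 10 genes, whose counts were 366 or more in every library.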
